A study of Mus musculus with 14 samples.

Results

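Mouse embryonic stem cells grown for 5 days with activin A and basic fibroblast growth factor (F/A) were compared with the same cells grown for 5 days with vitamin C and leukemia inhibitory factor (VitC/LIF). The comparison rests on the 2 F/A libraries and the 2 VitC/LIF libraries, 4 of the 14 libraries in the series, and covers every gene that passed a filter on low counts, 16033 of 37991 gene identifiers. The F/A medium was N2B27, which holds no serum, supplemented with 20 ng/ml activin A and 12 ng/ml bFGF. VitC/LIF cells were kept in medium with fetal bovine serum (FBS), LIF and vitamin C at 500 µM. Both groups were plated sparsely from 1 kind of cell, a C57BL/6 dual reporter stem cell carrying mCherry for the mir-290 cluster and, for the mir-302 cluster, eGFP, and total RNA was purified with RNeasy columns. The F/A medium holds activin A and bFGF and lacks serum, LIF and vitamin C, so the effects of these differences cannot be told apart here. Another 6 libraries, 2 each from L-Pro/LIF, 2i/LIF and FBS/LIF, entered the same statistical fit. A further 3 single libraries, extracted with Trizol from cells positive for both reporters, were used as a second set: F/A at day 3, F/A at day 5, and untreated day 0 cells, whose serum and LIF medium had vitamin C at 100 µM. The labels do not say whether replicate libraries came from separate cultures, so p-values measure the spread between these libraries, which may be technical.

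Embryonic stem cells in serum or 2i medium with LIF resemble the epiblast before implantation, a state called naive. LIF acts through the receptor subunits Lifr and Il6st on the transcription factor Stat3, and sustains naive genes. Activin, which signals through Smad2 and Smad3 as Nodal does, together with FGF, which signals through ERK, holds cells in the primed state of the epiblast after implantation, close to the onset of gastrulation. Vitamin C is a cofactor of the iron-dependent dioxygenases, among them the Tet enzymes that oxidise methylcytosine, the JmjC histone demethylases and the collagen prolyl hydroxylases, and in stem cells it is known for lowering DNA methylation at germline genes.

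Mapped fragments numbered 6937945 and 18424697 in the F/A libraries, and 19010225 and 17778399 in the VitC/LIF libraries, so F/A replicate 1 was the shallowest of all. The other 6 libraries of the fit held 18920832 to 26354444, and the double-positive libraries 33162689 to 35626817 counts. Between the media, genes differed by length: with the genes tested split by length into 5 equal bins, from the shortest to the longest bin the median log2 ratio of CPM + 1 to the VitC/LIF mean ran from -0.47 to 0.66 in F/A replicate 1 and from -0.18 to 0.35 in F/A replicate 2. Between the 2 VitC/LIF libraries it ran from 0.04 to -0.04. In the double-positive cells, F/A day 5 over day 0, it ran from -0.08 to 0.35. Its part in single results was not tested. Where removing the trend, an alternative chosen after seeing the data, changed the call of a named gene, the value without the trend stands beside it.

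**Figure D1:**
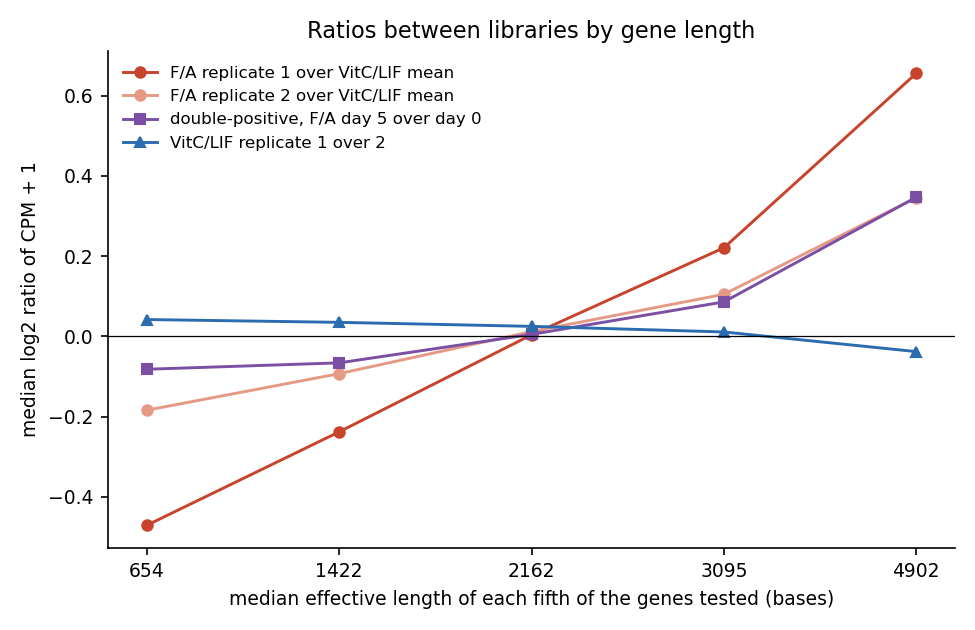
Median log2 ratio of CPM + 1 (y axis) in each of 5 equal bins of the genes tested, ordered by effective length in bases (x axis), for each F/A library over the mean of the VitC/LIF libraries, for double-positive cells at F/A day 5 over day 0, and for VitC/LIF replicate 1 over 2. The lines of both F/A libraries and of the double-positive cells rise with length, from -0.47, -0.18 and -0.08 to 0.66, 0.35 and 0.35, while that of the VitC/LIF pair stays between 0.04 and -0.04.

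At a Benjamini-Hochberg adjusted p under 0.05 (edgeR quasi-likelihood F test), 8100 genes were called, 50.5% of those tested. Of these, 4296 were higher in F/A (26.8%) and 3804 lower (23.7%). Past 2-fold as well, 2981 were higher (18.6%) and 1884 lower (11.8%), and past 8-fold 735 were higher and 628 lower. Of the calls, 53% were higher with TMM scaling and 65.9% when libraries were scaled by their totals alone (5309 higher and 2747 lower), which moved the median log2 fold change of all genes by 0.20, to 0.24 against 0.04. Leaving out VitC/LIF replicate 1 lowered the number of calls to 5239, and 56.4% of the calls (2381 higher and 2186 lower) held without any 1 of the 4 libraries. The counts of gene groups that follow are read against these shares. Members near 0 in F/A passed the low-count filter only through other media, and so could hardly be called higher. Likewise, members near 0 in VitC/LIF could hardly be called lower.

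Among called genes with a mean log2 CPM of 4 or more in the group where they were higher, those furthest apart on the F/A side included the apelin pair and factors of the primitive streak and node. Aplnr, the receptor of apelin on early mesoderm, had 33.7 and 28.1 CPM (counts scaled to library size with TMM) in F/A and no count in VitC/LIF, at least 350.5-fold higher against 3 counts over the group. Its ligand Apln had 82.2 and 101 CPM in F/A, against 0.607 and 0.521 in VitC/LIF (log2 fold change 7.33, SE 0.25). Receptor and ligand were thus both near absence in VitC/LIF and well expressed in both F/A libraries. Pcdh7, a protocadherin, had 94.1 and 57.1 CPM in F/A, against 0.055 and 0 in VitC/LIF. The other high extremes included Foxb1 and Sp8, transcription factors of the neural plate and the limb bud and caudal embryo, Nrcam, a neuronal adhesion molecule, and Rspo3, which amplifies Wnt signals, with log2 fold changes of 6.17 to 7.22.

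On the VitC/LIF side stood keratin Krt42, which had no count in F/A, against 46.2 and 48.3 CPM in VitC/LIF, at least 438.7-fold lower in F/A. Hal, the enzyme that deaminates histidine, and the X-linked homeobox gene Rhox9 were also at 0 in both F/A libraries, against 18.4 and 18.3 CPM and 15.8 and 16.4 CPM in VitC/LIF. Morc1, which silences transposons in the male germ line, had 0.127 and 0.1 CPM in F/A, against 149 and 136 CPM in VitC/LIF. Dppa5a, a KH-domain gene of early embryos, had 1.90 and 3.45 CPM in F/A, against 1341 and 1171 CPM in VitC/LIF, the highest level in VitC/LIF among the 15 lowest genes. Because whole cultures were measured, fewer cells of a type and less RNA per cell cannot be told apart.

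Most naive pluripotency genes tested were lower in F/A. Of 22 tested, 20 were lower, none higher, and the median log2 fold change was -5.88, beside 0.04 over all genes. Members near 0 in F/A, such as Dppa3 with 1 count, could hardly be called higher. The count and median alone thus do not show a shared fall. Esrrb, an orphan nuclear receptor of the naive network, had 1.27 and 1.15 CPM in F/A, against 170 and 231 CPM in VitC/LIF (log2 fold change -7.39, SE 0.29, adjusted p = 5.2e-07). Zfp42, the zinc finger gene also called Rex1, had 1.4 and 1.90 CPM in F/A, against 545 and 479.8 CPM in VitC/LIF (-8.23, SE 0.26). Dppa3, a maternal factor that shields the genome from demethylation, gave 1 count in all in F/A, against 71.3 and 62.4 CPM in VitC/LIF, a ratio of 1866 (95% counting interval 334.7 to 73750). The Krüppel-like factors did not act as 1 group: Klf2 and Klf4 fell by 6.22 and 6.20 on the log2 scale, while Klf5 had 13.2 and 5.25 CPM in F/A, against 12.9 and 19.6 CPM in VitC/LIF, and did not pass the test (adjusted p = 0.17). Nanog was the least changed of those called, with 48.2 and 51.9 CPM in F/A, against 194 and 196 CPM in VitC/LIF (-1.96, SE 0.14).

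The core pluripotency genes changed less. Of 15, 9 were lower, 2 higher and 4 not called, with a median of -0.75; without VitC/LIF replicate 1 the counts were 7 lower and 1 higher. Sox2, the partner of Oct4 on DNA, had 47.3 and 73.9 CPM in F/A, against 727 and 799 CPM in VitC/LIF (-3.65, SE 0.21). Pou5f1, which encodes Oct4, had 416 and 555 CPM in F/A, against 755 and 716 CPM in VitC/LIF (-0.60, SE 0.17, adjusted p = 0.017). That call was lost without F/A replicate 1, VitC/LIF replicate 1 or VitC/LIF replicate 2. Sall4 did not pass, with 265 and 208 CPM in F/A, against 224 and 271 CPM in VitC/LIF, and Lin28a, an inhibitor of let-7 maturation, rose by 0.62. The defining stem cell markers Pou5f1, Sox2 and Sall4 were thus all detected in both groups.

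Of the 18 genes of the primed epiblast tested, 15 rose, 1 fell and 2 did not pass (median 1.43). Fgf5, the ligand that marks the early postimplantation epiblast, had 81.2 and 63.1 CPM in F/A, against 0.552 and 0.810 CPM in VitC/LIF (6.71, SE 0.30, adjusted p = 3.3e-06). Cdh2, the N-cadherin gene, had 141 and 74.0 CPM in F/A, against 3.37 and 3.07 CPM in VitC/LIF (5.05, SE 0.39). Otx2, which opens primed enhancers, had 44.5 and 54.9 CPM in F/A, against 24.1 and 20.6 CPM in VitC/LIF, (1.16, SE 0.14), a smaller fold than that of Fgf5. Tcf15, a factor that marks stem cells leaving the naive state, was the exception, with 1.52 and 2.80 CPM in F/A, against 39.9 and 44.4 CPM in VitC/LIF (-4.19, SE 0.24). Pou3f1, the Oct6 gene, is uncertain, because 2% of its estimate came from fragments that hit this gene alone.

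Most mesendoderm genes tested were higher in F/A. Of 19, 15 rose and 2 fell, with a median of 5.01 (1 fell without F/A replicate 2 or either VitC/LIF library, or with library totals). T, the brachyury gene of nascent mesoderm, had 308 and 345 CPM in F/A, against 0.331 and 0.405 CPM in VitC/LIF (9.77, SE 0.22, adjusted p = 6.2e-08). Eomes, the T-box gene of the anterior streak and definitive endoderm, had 54.9 and 58.3 CPM in F/A, against 2.48 and 2.78 CPM in VitC/LIF (4.43, SE 0.18). Foxa2, a pioneer factor of node and endoderm, had 22.8 and 21.2 CPM in F/A, against 0.331 and 0.116 CPM in VitC/LIF (6.57, SE 0.84). Members this near to 0 in VitC/LIF, T among them, could hardly be called lower. The count and median therefore do not rank this list among the others. Levels in F/A differed widely among members that rose: the F/A mean of T was 239.6 FPKM (a level per length), Eomes at 19.8 and Cer1, a secreted Nodal inhibitor absent from VitC/LIF, at 3.10. Mesp1 and Tbx6, mesoderm genes, had 2.03 and 1.45 CPM and 1.90 and 1.30 CPM in F/A, under 3 CPM although called. Both calls were lost without VitC/LIF replicate 1. Fgf17 fell, with 4.82 and 6.10 CPM in F/A, against 17.7 and 15 CPM in VitC/LIF.

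**Figure D2:**
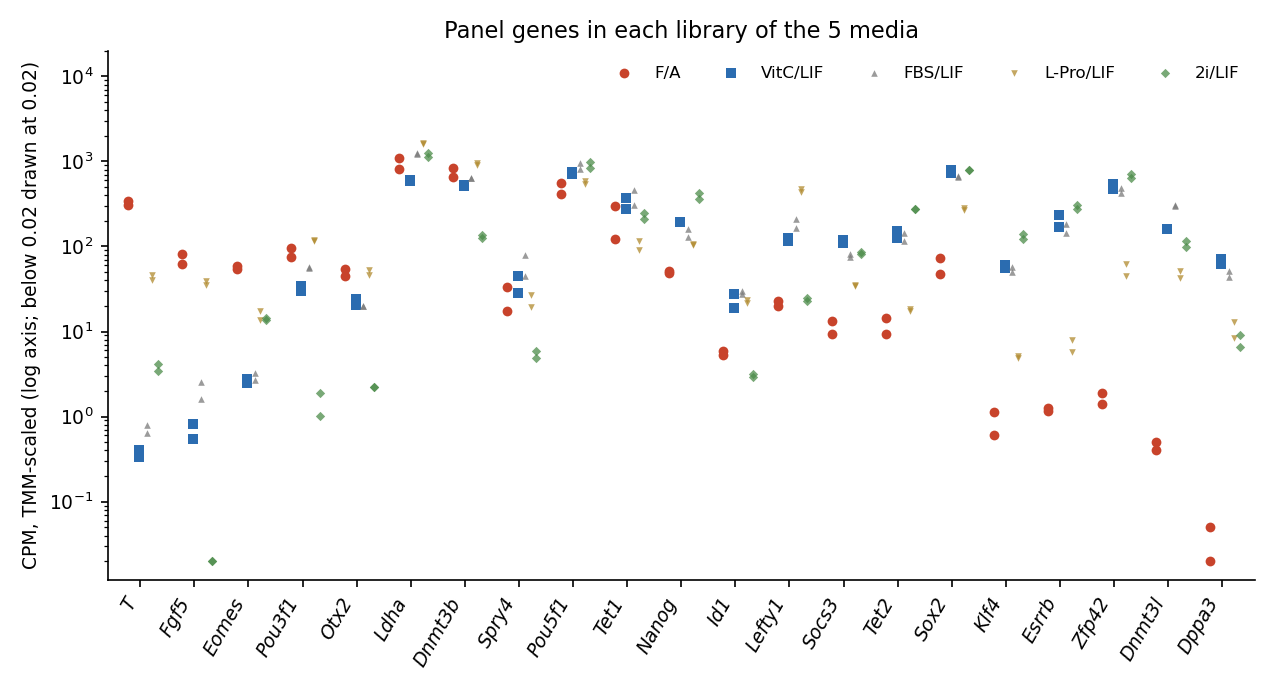
TMM-scaled CPM (log axis, values under 0.02 drawn at 0.02) of the 21 panel genes in each library of the 5 media, ordered by log2 fold change of F/A over VitC/LIF; circles are F/A and squares VitC/LIF. T, Fgf5 and Eomes lie far above in F/A (T at 308 and 345 against 0.331 and 0.405 CPM), and Klf4, Esrrb, Zfp42, Dnmt3l and Dppa3 far below, beside the other 3 media.

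Set among all 5 media, F/A was at the end of the order for 15 of the 21 panel genes, lowest for 11 and highest for 4. T averaged 327 CPM in F/A and 43.3 CPM in L-Pro/LIF, the next medium (log2 fold change 2.92, adjusted p = 9.9e-06). Esrrb averaged 1.21 CPM in F/A and 6.86 CPM in L-Pro/LIF, and Sox2 60.6 CPM in F/A and 277 CPM in L-Pro/LIF (adjusted p = 0.00083 and 0.00034). For Otx2, F/A and L-Pro/LIF averaged 49.7 and 49.3 CPM and did not differ beyond their spread (adjusted p = 0.94). Nor did Pou5f1 (adjusted p = 0.37), Dnmt3b (adjusted p = 0.1) or Tet2 (adjusted p = 0.06) between F/A and L-Pro/LIF pass the test. Lefty1 averaged 21.4 CPM in F/A and 23.7 CPM in 2i/LIF (adjusted p = 0.4), and stood higher in the other 3 media.

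Nodal and activin pathway genes moved in both directions: of 21, 9 rose and 7 fell (median 0.33). The ligand Nodal itself had 59.9 and 69.4 CPM in F/A, against 53 and 50.2 CPM in VitC/LIF, and did not pass (adjusted p = 0.051, and 0.032 without the length trend). Of the receptors, Acvr2a and Acvr2b rose by 1.5 each on the log2 scale, Acvr1b did not pass (-0.01, SE 0.12) and the co-receptor Tdgf1 fell by 0.75, a call lost without VitC/LIF replicate 1. Of the mediators, Smad3 and Smad4 rose by 1.80 and 1.30, and Smad2 did not pass (-0.14, SE 0.10). Among the secreted inhibitors, Fst, which sequesters activin, had 269 and 261 CPM in F/A, against 7.73 and 5.21 CPM in VitC/LIF (5.35, SE 0.21). Lefty2, a target that blocks Nodal, had 8.12 and 9.20 CPM in F/A, against 131 and 120 CPM in VitC/LIF (-3.85, SE 0.12). Lefty1, of the same kind, fell by 2.50 on the log2 scale. Inhbb, which encodes the beta B subunit of activins, had 0.380 and 0.250 CPM in F/A, against 77.0 and 79.3 CPM in VitC/LIF (-8.04, SE 0.19).

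In the FGF and ERK pathway 12 of 25 genes rose and 4 fell (median 0.60). Among the ligands, Fgf5 and Fgf8 rose by 6.71 and 7.17, while Fgf4, the ligand of naive cells, had 8.5 and 9.45 CPM in F/A, against 180 and 175 CPM in VitC/LIF (-4.30, SE 0.12). Of the receptors, Fgfr1 had 113 and 60.7 CPM in F/A, against 17.4 and 18 CPM in VitC/LIF (2.29, SE 0.29), and Fgfr2 did not pass (-0.40, SE 0.20; without the length trend -0.59, adjusted p = 0.037). Feedback genes of the pathway differed among themselves. Dusp4 and Dusp6, phosphatases that act on ERK, rose by 2.38 and 1.05, Etv5 fell by 1.14, and Spry4 had 33.0 and 17.3 CPM in F/A, against 28.6 and 45.1 CPM in VitC/LIF, without passing (adjusted p = 0.24); without the length trend it was lower (-1.01, adjusted p = 0.025).

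Genes of LIF and STAT3 signalling fell, 11 of 18, with 2 higher (median -1.4; Gbx2, Klf4 and Tfcp2l1 are also on the naive list). Socs3, the direct feedback inhibitor of the pathway, had 9.26 and 13.3 CPM in F/A, against 110 and 119 CPM in VitC/LIF (-3.33, SE 0.17, adjusted p = 2.4e-06). Stat3 had 33.7 and 27.3 CPM in F/A, against 94.2 and 98.0 CPM in VitC/LIF (-1.66, SE 0.13). The 2 receptor subunits diverged, Lifr at -1.19 (SE 0.17) and the shared subunit Il6st at 1.43 (SE 0.11), with 262 and 253 CPM in F/A, against 100.0 and 91.0 CPM in VitC/LIF. Bcl3, a target of the pathway, had 0.254 and 0.1 CPM in F/A, against 2.54 and 6.30 CPM in VitC/LIF.

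The promoter of Socs3 is shown because it was the only one of 16 of these genes with a RefSeq promoter to hold the STAT palindrome TTCNNNGAA in the 250 bases before the start (6.25%, beside 7.05% of the 11297 tested genes with a promoter; both strands read alike). It lies at chr11:117969367-117969616 of GRCm38.p6, minus strand, with the match in capitals.
Socs3: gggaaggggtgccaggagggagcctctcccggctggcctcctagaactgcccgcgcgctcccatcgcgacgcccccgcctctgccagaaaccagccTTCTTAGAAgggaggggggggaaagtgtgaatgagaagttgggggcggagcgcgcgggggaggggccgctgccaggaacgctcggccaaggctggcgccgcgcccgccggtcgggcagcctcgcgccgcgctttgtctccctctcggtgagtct

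BMP ligands, receptors and Id genes also divided. Of 20, 9 rose and 5 fell (median 0.68). The receptors Bmpr1a, Bmpr1b and Bmpr2 rose by 1.00, 2.30 and 2.03, and Bmp7 by 3.01. Against these, the ligand Bmp4 had 4.19 and 3.45 CPM in F/A, against 19.4 and 14.5 CPM in VitC/LIF (-2.16, SE 0.22). The Id genes, inhibitors of helix-loop-helix factors and targets of BMP, were lower where called: Id1 had 5.83 and 5.30 CPM in F/A, against 27.9 and 19.1 CPM in VitC/LIF (-2.09, SE 0.20), with Id3 at -1.35 and Id4 at -3.45, while Id2 did not pass (-0.03, SE 0.18).

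Wnt ligands and targets rose in the main, 14 of 26 with 5 lower (median 1.45; 13 and 3 without VitC/LIF replicate 1). Wnt3, the ligand of the primitive streak, had 40.5 and 41.4 CPM in F/A, against 1.49 and 1.04 CPM in VitC/LIF (5.01, SE 0.25). The target Axin2 had 37.9 and 30.9 CPM in F/A, against 3.20 and 4.22 CPM in VitC/LIF (3.21, SE 0.21), and the secreted antagonist Dkk1 rose by 4.48. Notum, which inactivates Wnt by removing its lipid, went the other way, with 0.634 and 0.35 CPM in F/A, against 29 and 26.8 CPM in VitC/LIF (-5.97, SE 0.35).

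In the Hedgehog pathway, of 12 genes 7 rose and 3 fell (median 1.48). The transducer Smo had 104 and 118 CPM in F/A, against 29.9 and 23.1 CPM in VitC/LIF (2.06, SE 0.18), and Gli3, the main repressor form, rose by 2.93. Among those that fell are the direct targets Gli1, with 1.01 and 1.20 CPM in F/A, against 24.6 and 22.9 CPM in VitC/LIF (-4.38, SE 0.21), and Ptch1 (-1.39, not called without VitC/LIF replicate 2). In the IGF axis 7 of 13 genes rose and none fell (median 0.64; 7 and 2 without F/A replicate 2, 6 and 1 without VitC/LIF replicate 2). Igfbp3, a binding protein, had 321 and 312 CPM in F/A, against 20.8 and 18.9 CPM in VitC/LIF (3.99, SE 0.11), the receptors Igf1r and Insr rose by 1.98 and 2.04, and the ligand Igf2 did not pass (0.57, SE 0.40).

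Of 10 genes of the DNA methylation machinery 6 were lower in F/A, among them Uhrf1 (not called without F/A replicate 1 or either VitC/LIF library) and Hells, cofactors of maintenance methylation, and 2 higher (median -0.59; 1 higher without F/A replicate 2 or either VitC/LIF library). Dnmt3l, the catalytically inactive partner of the de novo methyltransferases, had 0.507 and 0.4 CPM in F/A, against 159.1 and 159.5 CPM in VitC/LIF (-8.5, SE 0.20, adjusted p = 6.2e-08). Dnmt3a had 87.9 and 85.9 CPM in F/A, against 158 and 199 CPM in VitC/LIF (-1.04, SE 0.22). Dnmt3b had 665 and 829 CPM in F/A, against 535 and 508 CPM in VitC/LIF (0.52, SE 0.13, adjusted p = 0.012), a call lost without F/A replicate 2, VitC/LIF replicate 1 or VitC/LIF replicate 2, and without the length trend (0.21, adjusted p = 0.32). Per length the order of these 3 in F/A was Dnmt3b at 224 FPKM, Dnmt3a at 15.8 and Dnmt3l at 0.492, against 129, 48.8 and 107 FPKM in VitC/LIF.

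Among the Tet enzymes, which use vitamin C as a cofactor, 1 fell, 1 rose and 1 did not pass. Tet2 had 14.5 and 9.40 CPM in F/A, against 126 and 151 CPM in VitC/LIF (-3.56, SE 0.21). Tet3 had 52.1 and 24.7 CPM in F/A, against 4.58 and 5.55 CPM in VitC/LIF (2.91, SE 0.44). Tet1 did not pass (-0.64, SE 0.38, adjusted p = 0.19), and its F/A libraries stood apart, with 298 and 123.2 CPM in F/A, against 278 and 376 CPM in VitC/LIF. Without the length trend Tet1 was lower in F/A (-1.85, adjusted p = 0.00011). In the double-positive cells Tet1 had 987 CPM at day 0, 442 CPM at F/A day 3 and 173 CPM at F/A day 5.

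Most tested germline genes of those known to be held silent by DNA methylation were lower in F/A. Of 24 tested of 27 listed, 20 were lower, 1 was higher and 3 did not pass, with a median of -4.06. Several were near 0 in F/A, such as Hormad1 and Stra8 with 1 and 2 counts. These passed the low-count filter through other media and could hardly be called higher. The count and median are therefore not evidence of a shared fall. Summed over the list, they amounted to 39.3 and 31.9 CPM in F/A, against 373 and 351 CPM in VitC/LIF. The count lower ran from 18 to 21 over the alternatives. The promoters of 3 members that fell are printed because they are the ones that hold both of the motifs that readers of the PRC1.6 complex are known to bind, in capitals: the E box CACGTG (MAX and MGA) and the E2F element GCGGGAA (E2F6); each is the 250 bases before the RefSeq start on GRCm38.p6. Hormad1 lies at chr3:95559427-95559676 (plus strand), Sycp3 at chr10:88459337-88459586 (plus) and Ddx4 at chr13:112652311-112652560 (minus).
Hormad1: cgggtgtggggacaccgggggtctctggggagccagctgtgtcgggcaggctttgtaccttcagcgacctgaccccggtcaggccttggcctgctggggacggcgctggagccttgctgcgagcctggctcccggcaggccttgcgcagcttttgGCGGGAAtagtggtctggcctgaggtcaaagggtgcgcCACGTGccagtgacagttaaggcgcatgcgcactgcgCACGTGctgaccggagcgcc
Sycp3: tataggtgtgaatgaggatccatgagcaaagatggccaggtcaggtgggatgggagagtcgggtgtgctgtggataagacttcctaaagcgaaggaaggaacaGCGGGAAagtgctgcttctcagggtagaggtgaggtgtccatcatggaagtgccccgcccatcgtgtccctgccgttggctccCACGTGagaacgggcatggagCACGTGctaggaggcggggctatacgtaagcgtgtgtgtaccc
Ddx4: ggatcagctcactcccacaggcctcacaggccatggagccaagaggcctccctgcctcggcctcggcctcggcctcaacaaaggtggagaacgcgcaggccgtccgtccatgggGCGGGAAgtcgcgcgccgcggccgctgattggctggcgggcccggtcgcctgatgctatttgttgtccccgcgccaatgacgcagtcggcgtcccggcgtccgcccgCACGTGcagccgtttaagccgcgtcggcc

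Read on both strands, CACGTG stood in 11 of the 23 germline genes with a promoter (47.8%, beside 9.75% of all tested genes with one), and GCGGGAA in 7 of 23 (30.4%, beside 8.03%); 15 held at least 1 of them. The genes that fell include some with neither letter string, Stra8 and Dazl among them, and all 3 genes that did not pass, Sycp1, Tdrd1 and Brdt, hold CACGTG (Tdrd1 was lower without the length trend, -0.93, adjusted p = 0.021). A match is a description of the sequence only. CpG density did not set them apart, with a median observed over expected ratio of 0.75, beside 0.74 for all tested genes.

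Hormad1, a protein of the meiotic chromosome axis, gave 1 count in all in F/A, against 23.2 and 21.6 CPM in VitC/LIF, a ratio of 625.3 (95% counting interval 111.9 to 24730). Stra8, which starts the meiotic programme, gave 2 counts in F/A, against 26.1 and 23.9 CPM in VitC/LIF, a ratio of 348.9 (96.3 to 2885). In FBS/LIF, without added vitamin C, Stra8 had 5.36 and 4.08 CPM and Hormad1 8.46 and 6.84 CPM, both below VitC/LIF, while other members such as Ddx4, with 30 and 35.7 CPM, were above it. Dazl, an RNA-binding protein of germ cells, had 0.254 and 0.450 CPM in F/A, against 22.1 and 20.9 CPM in VitC/LIF (-5.78, SE 0.26). Ddx4, the vasa helicase, kept more, with 4.19 and 4.2 CPM in F/A, against 22.9 and 23 CPM in VitC/LIF (-2.45, SE 0.21). Tdrkh, a tudor protein of the piRNA pathway, was the 1 member that rose, with 9.64 and 7.55 CPM in F/A, against 1.55 and 1.5 CPM in VitC/LIF (2.48, SE 0.32).

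**Figure D3:**
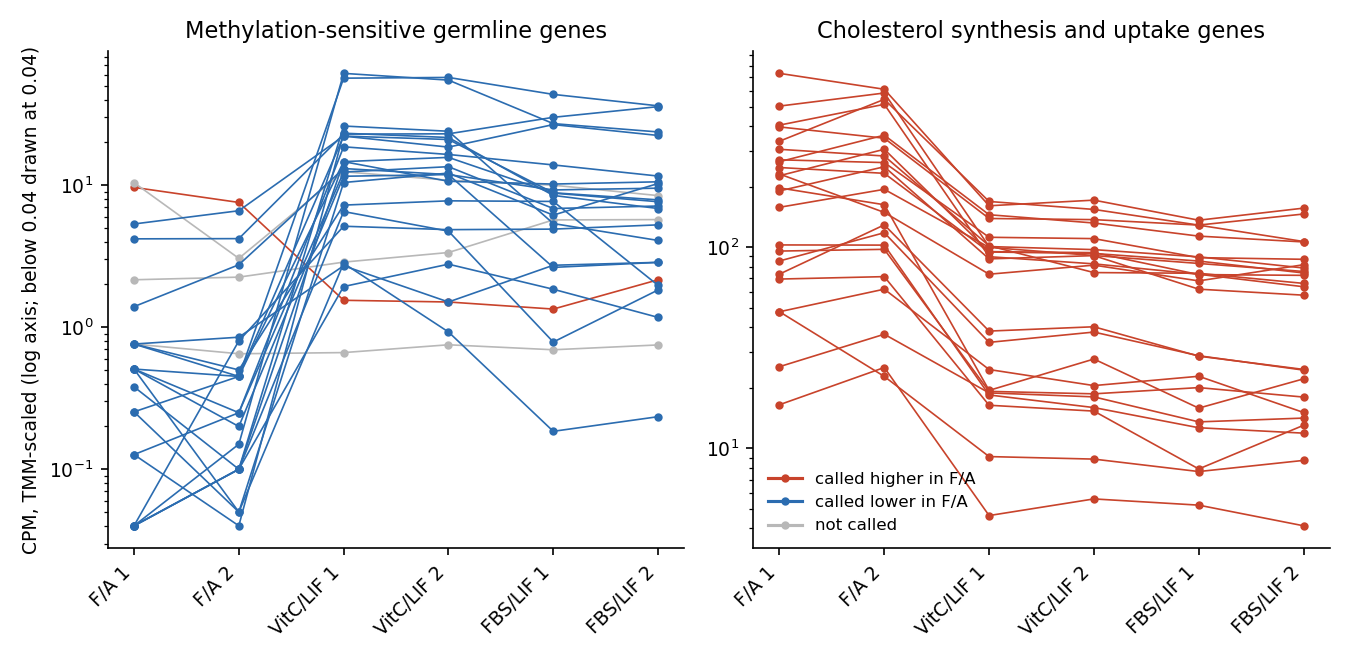
TMM-scaled CPM (log axis, values under 0.04 drawn at 0.04) of each germline gene (left) and each cholesterol gene (right) in the F/A, VitC/LIF and FBS/LIF libraries; a line joins the values of 1 gene, red if called higher in F/A, blue if lower, grey if not called. The summed germline level was 39.3 and 31.9 CPM in F/A, against 373 and 351 CPM in VitC/LIF, and all 23 cholesterol genes were higher in F/A.

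Genes of the oocyte and the subcortical maternal complex were lower in 6 of 6 tested (of 16 listed, median -7.26). Members at or near 0 in F/A passed the low-count filter only through other media, as in the naive and germline lists above. The same holds for the 2-cell-like list below. Such members could not come out higher, so these counts and medians are not evidence of a shared fall. Ooep gave 1 count in F/A, against 78.8 and 84.3 CPM in VitC/LIF, a ratio of 2271 (407.3 to 89740). The 4 tested genes of the 2-cell-like state, the Zscan4 members c, d and f and Pramef25, were all lower and gave at most 1 count in F/A, but no more than 35% of the estimate of Zscan4c was unique to it and 14% of that of Zscan4f, so the copies cannot be separated, and the call of Pramef25 was lost without F/A replicate 2 or VitC/LIF replicate 2. The median of this list was -8.59, or -6.38 with genes at 0 placed at their bound. Of the 10 Hox genes tested of 38, 4 rose and none fell; 2 rose without F/A replicate 2 or either VitC/LIF library.

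Imprinted genes rose more often than they fell, 9 and 5 of 21 (median 0.57; 7 to 9 and 3 without F/A replicate 1 or either VitC/LIF library). All genes tested also rose more often than they fell, 26.8% against 23.7%, so that order alone does not set the list apart. Peg3, a paternally expressed zinc finger gene, had 621 and 376 CPM in F/A, against 51.8 and 57.2 CPM in VitC/LIF (3.19, SE 0.23). The maternally expressed Phlda2 had 2.79 and 2.75 CPM in F/A, against 22.6 and 23.4 CPM in VitC/LIF (-3.05, SE 0.16), and H19 fell by 2.86, while Meg3, also maternally expressed, rose by 2.14.

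The other enzyme classes that use vitamin C showed no common direction. Of 21 JmjC and AlkB dioxygenases 7 rose and 4 fell (median 0.17), near the background, and the split depended on settings: 3 and 3 without VitC/LIF replicate 1, 11 and 4 with library totals, and 4 and 7 once the length trend was removed (median -0.14). Kdm6b, which demethylates H3K27, had 50.6 and 16.8 CPM in F/A, against 3.15 and 4.97 CPM in VitC/LIF (3.04, SE 0.54). Kdm3a, which demethylates H3K9 and answers to hypoxia, had 76.7 and 69.9 CPM in F/A, against 165 and 174 CPM in VitC/LIF (-1.21, SE 0.11). Of 11 collagen hydroxylases and their partners 6 rose and 4 fell (3 and 4 without VitC/LIF replicate 1). P4ha1, the prolyl hydroxylase subunit, had 55.7 and 67.7 CPM in F/A, against 18.2 and 17.2 CPM in VitC/LIF (1.80, SE 0.14), and Crtap, of the prolyl 3-hydroxylase complex, had 16.4 and 13.1 CPM in F/A, against 36.7 and 40.5 CPM in VitC/LIF (-1.4, SE 0.14).

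Hypoxia response genes, whose factor HIF1A is degraded through dioxygenases of the same class, rose in 17 of 30 and fell in 4 (median 0.67; 12 and 4 without VitC/LIF replicate 1, 9 and 4 with the 4 libraries alone). Pfkfb3, which speeds glycolysis, had 56.4 and 39.5 CPM in F/A, against 4.86 and 6.19 CPM in VitC/LIF (3.11, SE 0.26). Ndrg1 had 31.1 and 28.6 CPM in F/A, against 3.53 and 5.09 CPM in VitC/LIF (2.79, SE 0.21). Pdk1, a brake on pyruvate oxidation and a classic target of the same factor, went down, with 58.2 and 70.6 CPM in F/A, against 281 and 256 CPM in VitC/LIF (-2.06, SE 0.15). A rise over VitC/LIF was not always a rise over the other media. Pfkfb3 and Ndrg1 averaged 48.0 and 29.8 CPM in F/A, above 10.5 and 4.66 CPM in FBS/LIF. Ldha averaged 951 CPM in F/A, below 1229 CPM in FBS/LIF. Glycolytic genes rose in 7 of 19 and fell in 3 (median 0.35; 3 or 4 and 2 without either VitC/LIF library, 6 and 6 without F/A replicate 2). The lactate exporter Slc16a3 rose by 2.17, the platelet phosphofructokinase Pfkp fell by 2.75, and Ldha had 818 and 1083 CPM in F/A, against 583 and 607 CPM in VitC/LIF (0.68, SE 0.15), a call lost without VitC/LIF replicate 1.

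All 23 tested genes of cholesterol synthesis and uptake were higher in F/A, beside 26.8% of all genes, with a median of 1.5 (22 with the 4 libraries alone, and 23 in every other alternative), and 13 of 14 fatty acid genes were higher (median 1.10). Cyp51, which demethylates lanosterol, had 503 and 585 CPM in F/A, against 101 and 97.3 CPM in VitC/LIF (2.46, SE 0.14). Stard4, a sterol carrier, rose the most, by 2.93, and Ebp, a sterol isomerase, the least, by 0.77. Scd2, a desaturase, had 1698 and 1052 CPM in F/A, against 149 and 130.2 CPM in VitC/LIF (3.30, SE 0.35), and Fasn, the fatty acid synthase, had 1566 and 1267 CPM in F/A, against 454 and 458 CPM in VitC/LIF (1.63, SE 0.15). Elovl6 did not pass (0.15, SE 0.11) and was lower without the length trend (-0.46, adjusted p = 0.012). The 10-letter sterol regulatory element was in none of the 16 cholesterol genes with a promoter in these 250 bases, and in 0.177% of all tested genes.

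**Figure D4:**
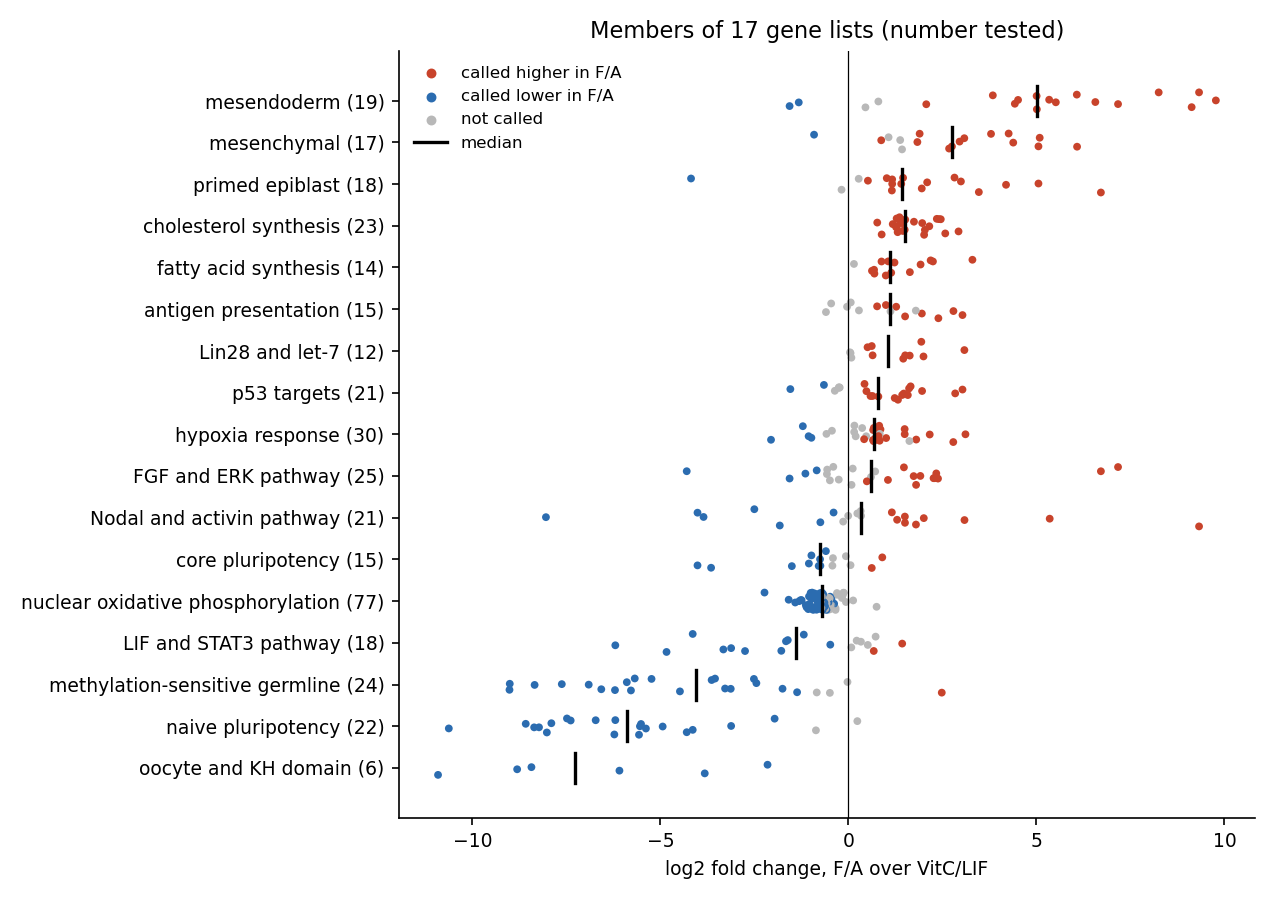
Log2 fold change of F/A over VitC/LIF (x axis) of each tested member of 17 gene lists (rows, number tested in brackets), red if called higher, blue if called lower, grey if not called; the black bar is the median and the vertical scatter has no meaning. Mesendoderm (median 5.01) lies furthest right, naive pluripotency (-5.88) and oocyte and KH domain genes (-7.26) furthest left, and all 23 cholesterol genes lie right of 0.

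Epithelial and mesenchymal genes rose together. Of 32 epithelial genes 19 rose and 5 fell (median 0.91), and of 17 mesenchymal genes 13 rose and 1 fell (median 2.75). The gene that fell, Zeb1, is uncertain: 1% of its estimate was unique, and the call was lost without any 1 of the 4 libraries. Krt8 and Krt19, simple epithelial keratins, had 283 and 407 CPM and 49.6 and 70.6 CPM in F/A, against 91.9 and 95.1 CPM and 9.05 and 10.2 CPM in VitC/LIF. Cdh1, the E-cadherin gene, had 466 and 272 CPM in F/A, against 159 and 157 CPM in VitC/LIF (1.22, SE 0.30), a call lost without F/A replicate 1 or either VitC/LIF library. Vim, the mesenchymal filament, had 418 and 435 CPM in F/A, against 64.2 and 62.2 CPM in VitC/LIF (2.75, SE 0.13), and Zeb2, a repressor of E-cadherin, had 40.2 and 25.6 CPM in F/A, against 1.16 and 2.26 CPM in VitC/LIF (4.26, SE 0.40). Both kinds of marker were detected in both F/A libraries. The keratin counts that follow were near the shares over all genes, 26.8% higher and 23.7% lower. Of 11 keratins 3 rose and 3 fell (median -1.15), and of 10 claudins 5 rose and 1 fell (median 0.91; 5 and 2 without F/A replicate 2).

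Extracellular matrix genes shifted between types. Of 36 collagens 19 rose and 6 fell (median 1.73). The basement membrane chains Col4a1 and Col4a2 had 184 and 179 CPM and 87.0 and 71.8 CPM in F/A, against 28.2 and 43.8 CPM and 12.0 and 19.1 CPM in VitC/LIF. Col18a1, another basement membrane collagen and the one with the most counts in VitC/LIF, had 209 and 232 CPM in F/A, against 499.7 and 465 CPM in VitC/LIF (-1.13, SE 0.12). Among 38 laminins, integrins and other basement membrane genes 15 rose and 8 fell (median 0.57), but these genes are long, with a median effective length of 4717 bases, and 10 rose and 12 fell once the length trend was removed (median -0.06). Itgb8, which activates latent TGF beta, had 64.2 and 40.2 CPM in F/A, against 2.37 and 1.79 CPM in VitC/LIF (4.64, SE 0.29), and Nid1, a linker of laminin and collagen, had 26.8 and 12.2 CPM in F/A, against 80.0 and 85.8 CPM in VitC/LIF (-2.12, SE 0.32). Of 13 contractile genes 6 rose and 2 fell (median 0.47; 2 and 2 without F/A replicate 2 or VitC/LIF replicate 1). Acta2, the smooth muscle actin, had 3.80 and 5.30 CPM in F/A, against 29.2 and 31.4 CPM in VitC/LIF (-2.71, SE 0.22), and in FBS/LIF it had 7.26 and 7.50 CPM.

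Genes of oxidative phosphorylation encoded in the nucleus were lower in F/A, 52 of 77 with none higher (median -0.71). The count was 30 without F/A replicate 1, 19 without VitC/LIF replicate 1, 32 without VitC/LIF replicate 2, 24 with the 4 libraries alone, 30 with library totals (with 1 higher) and 37 once the length trend was removed (with 1 higher, median -0.45). These are short genes, with a median effective length of 441 bases, and their median log2 ratio of CPM + 1 to VitC/LIF was -0.999 in F/A replicate 1, the shallow library, and -0.44 in F/A replicate 2. Cox4i1, a subunit of cytochrome c oxidase, had 115 and 177 CPM in F/A, against 474 and 405 CPM in VitC/LIF (-1.59, SE 0.24). Of the 13 protein genes of the mitochondrial genome 2 fell (median -0.45), mt-Co3 by 1.14 and mt-Co1 by 0.59; the call of mt-Co1 was lost without VitC/LIF replicate 1.

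Targets of p53 rose in 15 of 21 and fell in 2 (median 0.80; 13 and 4 without F/A replicate 2, 13 and 1 without VitC/LIF replicate 1). Cdkn1a, the p21 inhibitor of the cell cycle, had 44.9 and 25.1 CPM in F/A, against 3.75 and 5.96 CPM in VitC/LIF (2.84, SE 0.41), and Ccng1 rose by 1.23, while Gadd45a fell by 1.54. Antigen presentation genes rose in 8 of 15 and none fell (median 1.12; 1 fell without F/A replicate 2), led by the peptide transporter Tap1 with 37.8 and 40.4 CPM in F/A, against 4.86 and 4.69 CPM in VitC/LIF (3.03, SE 0.17). Genes stimulated by interferon were divided, with 4 higher and 6 lower of 15 (2 and 6 without either VitC/LIF library): the sensor Ifih1 rose by 4.15 and the membrane protein Ifitm3 fell by 2.40.

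Of 12 genes around Lin28 and let-7, 9 rose and none fell (median 1.05). Lin28b had 210.0 and 210.8 CPM in F/A, against 53.5 and 51.9 CPM in VitC/LIF (2.00, SE 0.09), and Hmga2, a chromatin protein held down by let-7, had 84.7 and 47.0 CPM in F/A, against 7.23 and 8.21 CPM in VitC/LIF (3.08, SE 0.27). The miRNAs themselves were not measured by these libraries: the 12 miRNA genes of the reporter clusters that have an identifier were at 0 in all 10 libraries. Of 11 subunits of the Polycomb repressive complex 2, which methylates H3K27, 6 fell and 1 rose (median -0.58). Eed had 68.1 and 92.5 CPM in F/A, against 267 and 274 CPM in VitC/LIF (-1.75, SE 0.15), and the rise of the catalytic subunit Ezh2 (0.69, SE 0.21, adjusted p = 0.025) was lost without F/A replicate 1 or either VitC/LIF library.

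Cell cycle and Myc genes changed in both directions, beside 26.8% higher and 23.7% lower over all genes tested. Where a count is near those shares, it is no result about the group. Of 18 G1 cyclins, kinases and inhibitors 6 rose and 5 fell (5 to 7 and 2 or 3 without F/A replicate 1 or either VitC/LIF library): cyclin Ccnd2 had 107 and 63.2 CPM in F/A, against 6.90 and 9.83 CPM in VitC/LIF (3.34, SE 0.43), and Ccnd3 had 42.0 and 35.2 CPM in F/A, against 116 and 108 CPM in VitC/LIF (-1.54, SE 0.15). In the Myc family 2 of 11 rose and 5 fell (3 lower without F/A replicate 1 or VitC/LIF replicate 2, 4 higher without F/A replicate 2, 4 and 4 with library totals). Mycn had 76.6 and 105 CPM in F/A, against 237 and 229 CPM in VitC/LIF (-1.36, SE 0.15), and Myc did not pass (0.97, SE 0.45).

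Stress and amino acid genes changed in both directions, as did all genes tested (26.8% higher and 23.7% lower). Counts near those shares are no result about a group. Of 38 genes of the ATF4 response and tRNA charging 7 rose and 11 fell (median -0.04; 7 to 17 fell without an F/A library and 4 to 6 without a VitC/LIF library; 12 rose and 6 fell with library totals). Atf3 rose by 3.21, while Asns, a standard ATF4 target, did not pass (0.18, SE 0.14). In proline metabolism 4 of 13 rose and 4 fell (2 or 3 and 1 to 3 without F/A replicate 1 or either VitC/LIF library), among them Oat, ornithine aminotransferase, with 171 and 212 CPM in F/A, against 40.0 and 34.7 CPM in VitC/LIF (2.36, SE 0.16). Of 20 genes of the NRF2 and glutathione group 3 rose and 9 fell (6 and 6 with library totals, 1 and 9 once the length trend was removed); Nqo1 fell by 1.57 and Slc7a11, the cystine transporter, rose by 1.88. Metallothionein and zinc genes rose in 2 of 12 and fell in 5 (1 and 4 without VitC/LIF replicate 1), with Mt1 at -1.58 and the transporter Slc39a8 at 5.49.

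Markers of other cell types were not all low, nor all level between the media. Of 19 primitive endoderm genes 12 rose and 1 fell (median 2.22; 11 and 2 without F/A replicate 1), and their summed level was 2222 and 1721 CPM in F/A, against 1184 and 1240 CPM in VitC/LIF. Of its defining markers Gata4 had 7.61 and 5.90 CPM and Pdgfra 10.1 and 8.70 CPM in F/A, against 1.16 and 1.22 CPM and 0.386 and 1.16 CPM in VitC/LIF, while Sox7 stayed under 0.6 CPM in all 4 libraries. This list moved with the mesendoderm genes and with Col4a1 and Col4a2, which it includes, and its part in them was not tested. Of 13 fibroblast and feeder genes 8 rose and 1 fell (median 2.25), with a summed level of 158 and 190.0 CPM in F/A, against 152 and 148 CPM in VitC/LIF; Col1a1, Col1a2, Dcn and Thy1 stayed under 3 CPM in all 4 libraries, and Lum did not pass the filter. Trophectoderm genes rose in 2 of 11 and fell in 4, with sums of 35.0 and 30.7 CPM in F/A, against 120.0 and 114 CPM in VitC/LIF (1 and 2 or 3 without either VitC/LIF library); Cdx2 had 5.71 and 6.10 CPM in F/A, against 0.386 and 0.983 CPM in VitC/LIF, and Elf5 and Gata3 did not pass. Most of the trophectoderm sum in VitC/LIF was 1 gene, Tfap2c, with 6.85 and 5.30 CPM in F/A, against 89.6 and 80.8 CPM in VitC/LIF. Neuroectoderm genes rose in 4 of 8 and fell in 2, counts that changed without F/A replicate 1 or VitC/LIF replicate 2. Their sums were 413 and 552 CPM in F/A, against 186 and 181 CPM in VitC/LIF. Nes alone had 316.5 and 461.5 CPM of the sums in F/A. Nes rose by 2.74 and Map2 by 3.12, while Tubb3 fell by 1.99. Of the defining markers, Pax6 did not pass, Neurog2 was below the filter and Sox1 was not among the 8 tested.

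In double-positive cells a similar change of medium was followed with 1 library a day. At F/A day 5 over day 0, on the log2 scale of CPM + 1 and with no test, 2464 of 16004 genes were past 2-fold higher (15.4%) and 1743 past 2-fold lower (10.9%). Of the genes called higher in F/A over VitC/LIF, 49.5% were past 2-fold higher and 0.279% past 2-fold lower there, and of those called lower, 36.1% were past 2-fold lower and 0.316% past 2-fold higher. Across genes, which are not independent replicates, the correlation was 0.71. Day 0 cells held serum, LIF and vitamin C, but the 2 experiments share no library.

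The double-positive cells add a day 3 to this. T had 0.703 CPM at day 0, 20.7 CPM at F/A day 3 and 850 CPM at F/A day 5, so most of its level was reached after day 3. Fgf5 was earlier, with 0.176, 80.2 and 121 CPM at day 0, day 3 and day 5. Esrrb had 645, 11.5 and 1.63 CPM at these days, and Dnmt3l 250.3, 83.7 and 0.392 CPM. All 22 naive genes were lower at day 5 than at day 0 past 2-fold, as were 21 of the 24 germline genes, while 14 of the 19 mesendoderm genes and 12 of the 23 cholesterol genes were higher past 2-fold. These counts compare day 5 with day 0 and say nothing about day 3, so they do not show a steady change. All tested genes of the 2-cell-like list were higher at day 3 than at day 0, and lower at day 5. Zscan4d had 2.78, 14.4 and 0.0603 CPM at day 0, day 3 and day 5, and Zscan4f 1.38, 9.32 and 0 CPM.

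A few genes and lists differed between the experiments. Lefty1 was lower in F/A than in VitC/LIF (-2.50), but had 44.3 CPM at day 0, 381 CPM at F/A day 3 and 85.7 CPM at F/A day 5 in double-positive cells. Acta2, too, was higher at F/A day 5, with 6.60 CPM against 1.11 CPM at day 0. Tagln, another smooth muscle gene, had 99.8 and 138 CPM in F/A, against 112 and 104 CPM in VitC/LIF, and 330 CPM at F/A day 5 against 2.81 CPM at day 0. Of the 13 contractile genes 9 were past 2-fold higher at day 5 and none lower. Only 1 of the 77 oxidative phosphorylation genes was past 2-fold lower there, and none higher. This cutoff is unlike the adjusted p behind the calls in F/A over VitC/LIF. Their median log2 ratio of CPM + 1 there was -0.34, in the same direction as in F/A replicates 1 and 2 over VitC/LIF (-0.999 and -0.44). These differences between experiments were not tested.

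**Figure D5:**
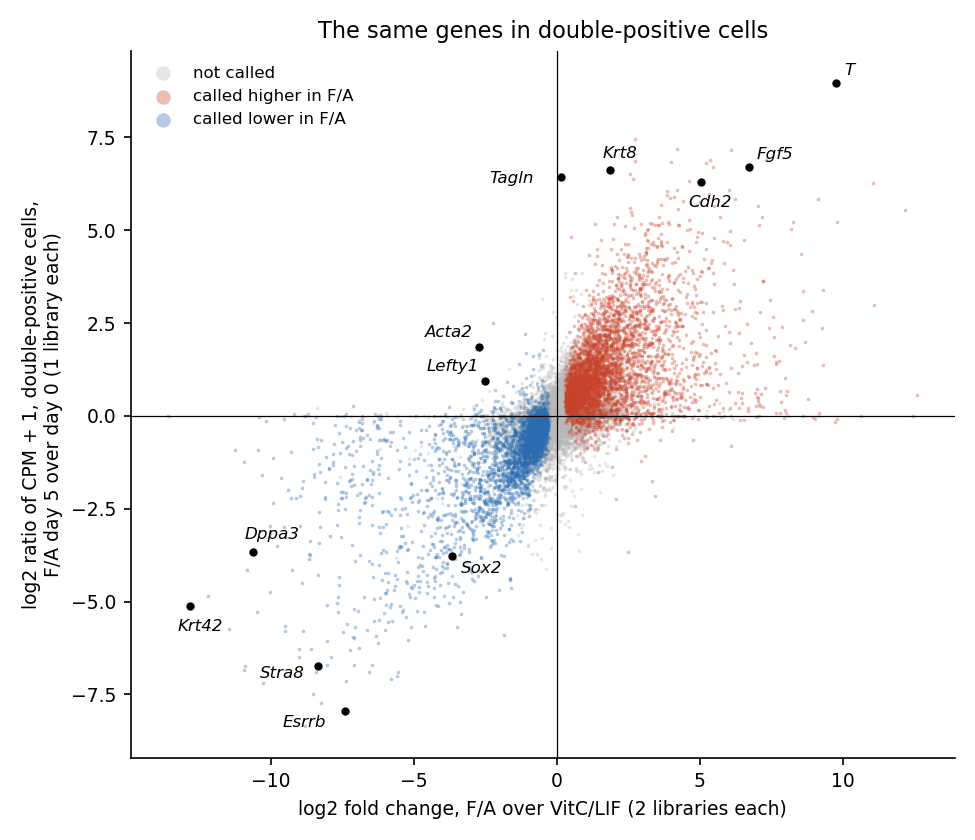
Each point is 1 of 16004 genes: log2 fold change of F/A over VitC/LIF (x axis, 2 libraries each) against the log2 ratio of CPM + 1 in double-positive cells, F/A day 5 over day 0 (y axis, 1 library each), red if called higher in F/A, blue if lower, grey if not called. Most called genes lie in the lower left and upper right, while Acta2 and Lefty1 lie in the upper left and Tagln high near 0 on the x axis.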

How the data were processed

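Transcripts were measured by RNA sequencing of total RNA, and 10 libraries of 5 media entered 1 fit. The authors deposited, for each of these libraries, an expression estimate per gene as a natural log of FPKM, the effective length and the count of fragments unique to the gene, per the file headers. Gene counts of the double-positive libraries were deposited by the authors as whole numbers. The submitters' processing notes name CASAVA, TopHat2 2.0.13, Bowtie, HTSeq 0.6.1p1, DESeq and mm9; the tool behind the estimates and the strand setting are not given in the sources used here. Counts per gene were rebuilt as exp(estimate) times effective length times mapped fragments, rounded, and so are estimated, not observed; they amounted to 98.73 to 99.48% of mapped fragments. Genes were filtered with filterByExpr, scaled by TMM and tested with edgeR 4.0.16 (R 4.3.3; quasi-likelihood F test, two-sided, Benjamini-Hochberg adjusted p under 0.05 over 16033 genes). The SE is the size of the log2 fold change over the root of F. A ratio with 1 to 3 counts has a 95% counting interval, and bounds use 3 counts over the group; both cover counting error only. The fit was tested on simulated data. Alternatives were DESeq2 1.42.0, other scalings and filters, unique counts, thinning, the replicate block and leaving out each library. Named were the 15 highest and 15 lowest called genes with a mean log2 CPM of 4 or more where higher, without overlap between groups and mostly from unique fragments, up to 9 of each list and a panel of 21. Acvr1b, Acvr2a, Acvr2b, Asns, Axin2, Bmp4, Bmpr1a, Bmpr2, Ccng1, Cdh1, Col18a1, Col4a1, Col4a2, Dazl, Ddx4, Dusp6, Ebp, Elf5, Etv5, Fgf17, Gadd45a, Gata4, Id3, Il6st, Klf2, Lifr, Lin28a, Mesp1, Nid1, Ptch1, Smad3, Smad4, Smo, Sox7, Stat3, Sycp3, Tbx6, Tdgf1, Tdrkh, Thy1, Uhrf1, Vim and Zeb1 fell outside that rule and were chosen after their values were seen. The members and lists were chosen with earlier results of these data known. Some results are not reported here. Symbols came from GENCODE vM21 and promoters from RefSeq.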

Additional observations from a re-analysis of the deposited data

How the results depend on the processing

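The number of genes called ran from 5239 to 8973 when 1 of the 4 libraries was left out, with 2754 to 4247 higher and 2485 to 4726 lower; the lowest values came without VitC/LIF replicate 1 and the highest without F/A replicate 2, and the lone library left in a group was assumed to vary like the others. DESeq2 called 8031 genes, the 4 libraries alone 5585, counts thinned to equal depth 6962 and unique counts 8503. With the length trend removed, chosen after seeing the data, 3682 were higher and 4320 lower: 80.8% of the higher and 92.7% of the lower calls were kept, 19 genes called higher were called lower and 0 the reverse. Of the named genes, 7 that were not called were then called with the opposite sign: Elovl6 (-0.461), Fzd7 (-0.370), Kdm5c (-0.297), Lamc1 (-0.529), Mga (-0.370), Skil (-0.407) and Trim71 (-0.444); the cause was not tested. In double-positive cells a pseudocount of 5 CPM gave 1571 genes past 2-fold higher and 1004 lower. With the length trend removed, some genes named in the Results kept their call while their fold change moved by over 1.5 times. They were Ccnd2 (2.74), Col4a1 (1.67), Col4a2 (1.69), Fasn (0.73), Gli3 (2.10), Insr (1.32), Itgb8 (3.96), Lifr (-1.97), Nid1 (-2.79), Pdgfra (2.94), Peg3 (2.31), Slc7a11 (1.01), Tet2 (-4.44), Tet3 (1.82) and Tfcp2l1 (-5.09). Nothing in the labels ties replicate numbers across media, and the main fit did not take the numbers as pairs. The ground was that 1 of 10 correlations between same-numbered deviations was under 0.1 (F/A with FBS/LIF, 0.098). That value does not show that the libraries are unpaired. All were positive, and the others ran from 0.125 to 0.518 (F/A with VitC/LIF, 0.217). The median effective length, relative to FBS/LIF replicate 1, also split by number. It was -1 to 7 bases in the first and 39.4 to 54.1 in the second replicates. The libraries thus differed by replicate number, but the labels do not say what the numbers stand for. The fit with the replicate block called 7987 genes. Its common coefficient of variation between libraries was 0.189, against 0.238 in the main fit. F/A replicate 1, with 6937945 mapped fragments, limits the precision of low genes.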
